A study of Rattus norvegicus with 8 samples.

Results

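The Eph receptors that guide retinal axons to their targets were examined here in sorted large against sorted small retinal ganglion cells of the rat. The group was fixed by name as 10 genes (Epha3, Epha4, Epha5, Epha6, Epha7, Epha8, Ephb1, Ephb2, Ephb3 and Ephb6), and a gene was taken as the mean of the array probes that carry its symbol alone. Of the 10 genes, 8 were measured, by 18 of the 41048 probes and among 14802 named genes. Epha6 and Epha8 had no probe with a single symbol in the platform's probe table and are not analysed here.

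Eph receptors are receptor tyrosine kinases at the cell surface that bind ephrins on neighbouring cells, and contact often makes a growing axon turn away. EphA receptors mostly bind ephrin-A ligands, which are held in the membrane by a lipid anchor, and EphB receptors mostly bind the transmembrane ephrin-B ligands. In the developing retina EphA receptors are known for ordering axons along the temporal to nasal axis and EphB receptors for the dorsal to ventral axis.

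Each of the 8 arrays carried RNA of sorted large and of sorted small ganglion cells in its 2 channels, and the measurement is a log2 ratio of the channels for each probe. The cells came from freshly dissected rat retina, had been labelled retrogradely with the dye 4DI-10ASP and were sorted by flow cytometry with Actinomycin D, a blocker of transcription, added. RNA was amplified in 2 rounds. All 8 arrays therefore make 1 comparison, large against small cells, and the sources used here do not give the strain, age or sex of the rats or how many were pooled. Arrays are called by the number in their title (39, 40, 41, 42, 43, 69, 70 and 71). A ratio holds no level, so neither the abundance of a receptor nor the presence of a cell type's markers could be checked. In sorted cells, fewer cells of a subtype and less RNA in each cell cannot be told apart.

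The direction of the ratio is not settled. The labels list large cells under Cy5 and small cells under Cy3 for each array, but the series text describes a dye swap, and no source names the numerator. The arrays also formed 2 sets by their correlation over all probes. Set 1 holds arrays 39, 41, 43 and 70 and set 2 holds arrays 40, 42, 69 and 71. Within the sets, all 12 pairs of arrays correlated positively (Pearson 0.22 to 0.68). Between the sets, 15 of 16 pairs correlated negatively, and 2 of them fell below -0.3, down to -0.32. The labels give 1 dye orientation, yet the sets oppose each other in this way, so the sign of the ratio is not settled. Each gene is therefore placed on the negative or the positive side of 0. Where a gene outside the marker lists has its mean given, the mean with the signs of set 2 turned is given too. If the ratio runs large over small cells on every array, the negative side means lower in large cells. If it runs the other way on the arrays of set 2 alone, that reading belongs to the mean with turned signs.

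Of the 8 measured Eph receptors, 3 were called at an adjusted p under 0.05, all on the negative side. They were Ephb1, Epha5 and Epha4, with mean ratios that correspond to 1.59-fold, 1.5-fold and 1.36-fold. The other 5, Ephb6, Epha7, Ephb2, Epha3 and Ephb3, did not pass the test. Over the whole table, limma called 2.19% of 14801 genes, of which the negative side held 1.62% and the positive side 0.568% of all genes tested. The median of the 8 receptor means was -0.23, against -0.0057 over all genes tested, and 6 of the 8 means lay below 0, against 52.0% of all genes. With the signs of set 2 turned, the median of the receptor means was -0.097, against -0.0040 over all genes tested, and 5 of the 8 means lay below 0, against 50.7% of all genes. The labels speak of technical subreplicates without naming them, so p-values over 8 arrays measure only the spread between arrays and are too small where arrays share a biological replicate.

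**Figure D1:**
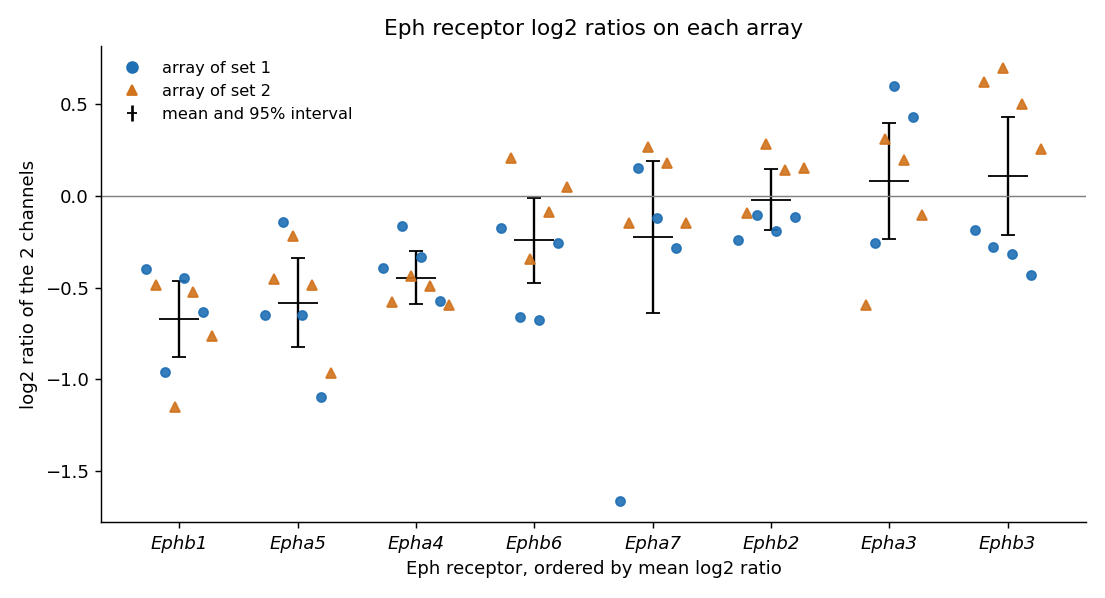
Each point is the log2 ratio (vertical axis) of 1 Eph receptor on 1 array, in array order from left to right, with circles for set 1 and triangles for set 2, and bars give the mean and its 95% interval. Ephb1, Epha5 and Epha4 lie below 0 on 8 of 8 arrays, and the points of Ephb3 split by set around 0.

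Ephb1 had the lowest mean of the group in the ratios as deposited. In the mouse, this receptor is made by ganglion cells of the ventrotemporal retina, whose axons turn back at the optic chiasm and stay on the same side of the brain. Its log2 ratios ran from -1.15 through a median of -0.58 to -0.40, and none of the 8 arrays came near 0. The mean was -0.67 ± 0.27 (SD, n = 8 arrays, 95% interval -0.88 to -0.46, limma adjusted p = 0.00921). Of the genes with a value on each array, 2.88% were negative on all 8. Both Ephb1 probes passed the test over single probes, which called 1.75% of 41040 probes. Probe 13450 averaged -0.62 ± 0.27 and probe 23293 averaged -0.72 ± 0.38 (SD, n = 8 arrays each, limma adjusted p = 0.0157 and 0.0222). The gene averaged -0.61 ± 0.25 over set 1 and -0.73 ± 0.31 over set 2 (SD, n = 4 arrays each), so its deposited ratio lay on the same side in both sets. If set 2 held swapped arrays that were not turned, the same side would stand for opposite differences between large and small cells.

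Arrays of neighbouring title numbers gave close values for Ephb1. Arrays 39 and 40 stood at -0.40 and -0.49, arrays 41 and 42 at -0.96 and -1.15, arrays 43 and 69 at -0.45 and -0.52, and arrays 70 and 71 at -0.63 and -0.77. Within these 4 pairs the values differed by 0.078 to 0.19, while the pair means ran from -1.05 to -0.44. The labels do not say that neighbouring numbers belong together, and each such pair holds 1 array of each set. When the pairs were averaged first, limma called 0 of 14802 genes from the 4 averages, with 1928 genes at an unadjusted p under 0.05, against 1936 over the 8 arrays. Ephb1 then had an adjusted p of 0.0964, Epha4 of 0.0941 and Epha5 of 0.164, with unadjusted p of 0.00118, 0.000724 and 0.00564 in the limma fit. The lowest adjusted p of any gene in that fit was 0.0838.

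**Figure D2:**
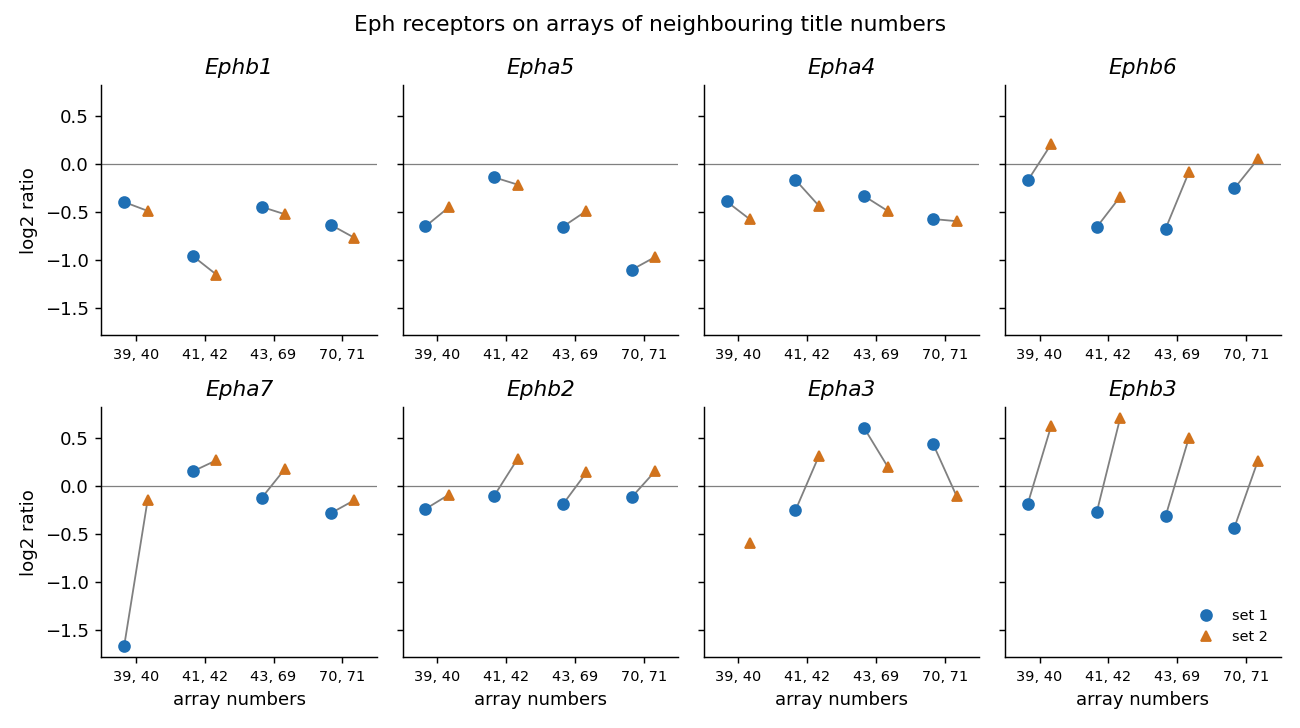
Log2 ratios (vertical axis) of each measured Eph receptor on pairs of arrays with neighbouring title numbers (horizontal axis), joined by lines, with circles for set 1 and triangles for set 2. Paired values of Ephb1, Epha5 and Epha4 lie close together below 0, those of Ephb3 lie on opposite sides of 0 in 4 of 4 pairs, and array 39 has no value for Epha3.

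Epha5 came next. In the mouse it is one of the receptors whose level is high in temporal and low in nasal ganglion cells. Its log2 ratios ran from -1.10 through a median of -0.57 to -0.14, with the lowest values on arrays 70 and 71 (-1.10 and -0.96) and the highest on arrays 41 and 42 (-0.14 and -0.22). The mean was -0.58 ± 0.33 (SD, n = 8 arrays, 95% interval -0.83 to -0.34, limma adjusted p = 0.0243), and the ratio was negative on 8 of 8 arrays. The mean was -0.63 ± 0.39 in set 1 and -0.53 ± 0.31 in set 2 (SD, n = 4 arrays each). The means of its 2 probes lay on the same side, probe 11718 at -0.68 ± 0.32 and probe 34447 at -0.49 ± 0.50 (SD, n = 8 arrays each), and the first of them passed the test (limma adjusted p = 0.0167 and 0.199). Probe 34447 was positive on arrays 41 and 42 (0.057 and 0.17), so only the average of the probes was negative on 8 of 8 arrays. Between the sets the probes moved in opposite directions. Probe 11718 averaged -0.55 over set 1 and -0.80 over set 2, and probe 34447 -0.72 and -0.26. The call of Epha5 was lost without array 43, 69, 70 or 71, with limma adjusted p of 0.0713, 0.0585, 0.0639 and 0.0711, and without arrays 39 and 40 together (0.0643), an alternative added after seeing the data. Its mean lay between -0.65 and -0.51 without any single array.

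Epha4 was the third called receptor. It binds ephrins of both classes, and in the mouse it is found across the whole retina without the gradient of Epha5. Its log2 ratios ran from -0.59 through a median of -0.46 to -0.17, the narrowest range of the called receptors, with the highest value on array 41. The mean was -0.44 ± 0.15 (SD, n = 8 arrays, 95% interval -0.59 to -0.30, limma adjusted p = 0.0111). It was -0.37 ± 0.17 in set 1 and -0.52 ± 0.075 in set 2 (SD, n = 4 arrays each).

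The 5 probes of Epha4 did not give 1 value. Probes 1191 and 35931 lay at -0.81 ± 0.38 and -0.63 ± 0.34 (SD, n = 8 arrays each) and passed the test over single probes (limma adjusted p = 0.0150 and 0.0279). Probes 881, 26929 and 797 lay at -0.34 ± 0.55, -0.27 ± 0.43 and -0.18 ± 0.22 (SD, n = 8 arrays each) and did not (limma adjusted p = 0.508, 0.508 and 0.458). On array 41 the probes ran from -1.35 for probe 1191 to 0.58 for probe 881. The narrow range of the gene's mean over arrays is thus that of an average over probes that spread widely on a single array.

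**Figure D3:**
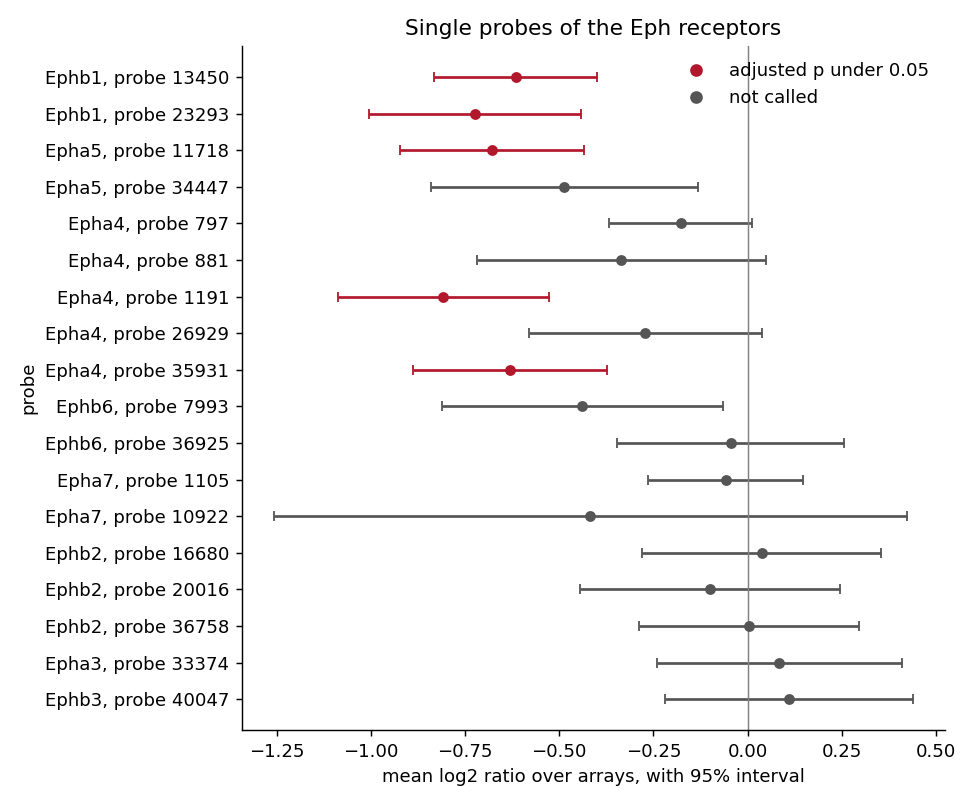
Mean log2 ratio over arrays (horizontal axis) of the 18 probes of the measured Eph receptors, with 95% intervals, in red where the adjusted p over all probes was under 0.05. Both probes of Ephb1, 1 of 2 of Epha5 and 2 of 5 of Epha4 are red, and 14 of the 18 means lie below 0.

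Of the receptors that did not pass the test, Ephb6 had the lowest mean. EphB6 is an unusual member of the family, because its kinase domain lacks catalytic activity. Its log2 ratios ran from -0.67 through a median of -0.21 to 0.21 and were negative on 6 of 8 arrays, with positive values on arrays 40 and 71. The mean was -0.24 ± 0.31 (SD, n = 8 arrays, 95% interval -0.47 to -0.0092, limma adjusted p = 0.357). It was -0.44 ± 0.26 in set 1 and -0.043 ± 0.23 in set 2 (SD, n = 4 arrays each). Its 2 probes stood apart, at -0.44 ± 0.53 for probe 7993 and -0.045 ± 0.42 for probe 36925 (SD, n = 8 arrays each). The difference between the sets was that of probe 7993, at -0.91 in set 1 and 0.038 in set 2. Probe 36925 stood at 0.035 and -0.12.

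Epha7, a receptor of ephrin-A ligands that also exists in forms without the kinase domain, had a mean of -0.22 ± 0.61 (SD, n = 8 arrays, limma adjusted p = 0.75). Its log2 ratios ran from -1.66 through a median of -0.14 to 0.27. The value of -1.66 on array 39 lay far below the other 7 arrays, which ran from -0.28 to 0.27, and without it the mean was -0.015. On array 39 probe 10922 stood at -2.88 and probe 1105 at -0.44, and on array 40 the value of probe 10922 was exactly 0 and counted as missing.

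Epha3, known as an EphA receptor of temporal ganglion cells in the chick, was measured by 1 probe. Its deposited value on array 39 was 17.05, beyond the size of 15 above which values were treated as missing. On the other 7 arrays its log2 ratios ran from -0.59 through a median of 0.20 to 0.60, with 4 positive and 3 negative. The mean was 0.084 ± 0.42 (SD, n = 7 arrays, 95% interval -0.23 to 0.40, limma adjusted p = 0.918). With the value of array 39 kept, the mean was 2.20 and the gene was still not called (limma adjusted p = 0.73).

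Ephb2 and Ephb3 are the EphB receptors known in the mouse for their high level in the ventral retina. Ephb2 had log2 ratios from -0.24 through a median of -0.097 to 0.28, and a mean of -0.020 ± 0.19 (SD, n = 8 arrays, 95% interval -0.19 to 0.15, limma adjusted p = 0.969). Ephb3 had log2 ratios from -0.43 through a median of 0.038 to 0.70, and a mean of 0.11 ± 0.46 (SD, n = 8 arrays, 95% interval -0.21 to 0.43, limma adjusted p = 0.885). As gene means, both followed the set of the array. Ephb3 was negative on 4 of 4 arrays of set 1 and positive on 4 of 4 arrays of set 2, with means of -0.30 ± 0.10 and 0.52 ± 0.19 (SD, n = 4 arrays each). Ephb2 was negative on 4 of 4 arrays of set 1 and on array 40, and averaged -0.16 ± 0.065 over set 1 and 0.12 ± 0.16 over set 2 (SD, n = 4 arrays each). Its 3 probes did not follow the sets in 1 direction. Probe 16680 averaged -0.35 over set 1 and 0.42 over set 2, and probe 20016 -0.50 and 0.30. Probe 36758 went the other way, at 0.37 and -0.36. The mean of Ephb2, as deposited or with turned signs, is thus an average over probes that oppose each other.

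With the signs of set 2 turned, a different member was called. The means were then 0.062 for Ephb1, -0.052 for Epha5 and 0.079 for Epha4 (limma adjusted p = 0.868, 0.878 and 0.732), and Ephb3 at -0.41 was the called member (limma adjusted p = 0.00215). Ephb6 then stood at -0.20, Epha7 at -0.26, Ephb2 at -0.14 and Epha3 at 0.14 (limma adjusted p = 0.211, 0.326, 0.0628 and 0.476). The order of the means also changed, and ran from Ephb3, Epha7, Ephb6, Ephb2, Epha5, Ephb1 and Epha4 to Epha3. That fit called 28.1% of all genes, so 1 member in 8 is below the share of the whole table. The sets were drawn from correlations of these same ratios. All p-values of the fit with turned signs therefore rest on a grouping taken from the data tested. Which of the 2 fits holds the contrast of large against small cells depends on whether swapped arrays had been turned before deposit, which the sources used here do not say. A term for the set in the fit leaves the deposited means of Ephb1, Epha5 and Epha4 unchanged by design. It changes only the spread left over, so it does not bear on the sign. In that fit these receptors were called (limma adjusted p = 0.00425, 0.0167 and 0.00287), where 6.27% of all genes were called. With neighbouring arrays as a random block besides, their means were again the same and they were called (limma adjusted p = 0.0105, 0.0332 and 0.0106), among 3.04% of all genes.

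The order of the means as deposited ran from Ephb1, Epha5, Epha4, Ephb6, Epha7, Ephb2 and Epha3 to Ephb3. Neighbours in it are close by construction, because the order was made from these same means. A lone neighbouring pair at the smallest p of the exact test could not pass after adjustment over 7 pairs. The test between neighbours could therefore not show that they are alike. The 7 differences between neighbours were from -0.20 to -0.021 on the log2 scale, and the exact 2-sided sign-flip permutation test over arrays gave adjusted p from 0.82 to 0.961. Over all 28 pairs of members, a comparison added after the data had been seen, 0 differences passed at an adjusted p under 0.05 by the exact test and 9 did so before adjustment. The smallest p that 8 arrays allow is 0.00781. Ephb1 reached it against Ephb2, with a difference of -0.65 ± 0.42 (SD, n = 8 arrays, exact permutation adjusted p = 0.0547), and against Ephb3, with a difference of -0.78 ± 0.59 (SD, n = 8 arrays, exact permutation adjusted p = 0.0547). Epha5 minus Ephb2 reached it too, at -0.56 ± 0.35 (SD, n = 8 arrays, exact permutation adjusted p = 0.0547), as did Epha4 minus Ephb2, at -0.42 ± 0.27 (SD, n = 8 arrays, exact permutation adjusted p = 0.0547). In each of these 4 pairs the difference was negative on 8 of 8 arrays. No smaller p was possible for them, so the count of 0 after adjustment does not show that the members are alike. Once the signs of set 2 were turned, 0 of 28 differences passed at an adjusted p under 0.05 by the exact test and 2 did so before adjustment. These were Epha3 minus Ephb3, at 0.58 ± 0.42 over 7 arrays, and Ephb2 minus Ephb3, at 0.27 ± 0.24 over 8 arrays (SD, exact permutation adjusted p = 0.219 each).

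The genes whose log2 ratios over the 8 arrays were most like a called receptor were found by the root mean square difference from it, which turning the signs of an array does not change, among 14665 genes with a value on each array. For Ephb1 they were Lrp3, a lipoprotein receptor relative, at 0.14, and Rgs9, a regulator of G protein signalling, and Tmem248 at 0.15 each, where the median gene stood at 0.77. For Epha5 they were Ramp3, a partner of the calcitonin-type receptors, at 0.14, and the sterol enzyme Msmo1 and the ion channel Trpv2 at 0.20 each, with a median gene at 0.72. For Epha4 they were Tmem150c at 0.056, Tmem163 at 0.084 and Ltn1 at 0.097, with a median gene at 0.55. These genes were picked for the smallest differences of all, so they stand far below the median gene by construction. Among the receptors themselves, Epha4 and Epha5 were the closest called pair, at 0.28, and Ephb1 and Epha5 stood at 0.49.

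The stretches before the gene starts of Ephb1 and Epha5, both called on the negative side, and of Ephb3, whose mean lay on the other side, are shown from RefSeq (assembly GRCr8), 250 bases each on the strand of the gene. Capitals mark the letters CCAAT read on either strand, which is the core of the CCAAT box of promoters. The windows are chr8:111823760-111824009 (minus strand) for Ephb1, chr14:24007872-24008121 (plus strand) for Epha5 and chr11:93363776-93364025 (minus strand) for Ephb3.
Ephb1: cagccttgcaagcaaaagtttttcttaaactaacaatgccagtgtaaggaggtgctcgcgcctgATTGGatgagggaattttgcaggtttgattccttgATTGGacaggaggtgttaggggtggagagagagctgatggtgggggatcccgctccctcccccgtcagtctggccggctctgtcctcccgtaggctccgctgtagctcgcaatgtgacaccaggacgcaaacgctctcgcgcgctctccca
Epha5: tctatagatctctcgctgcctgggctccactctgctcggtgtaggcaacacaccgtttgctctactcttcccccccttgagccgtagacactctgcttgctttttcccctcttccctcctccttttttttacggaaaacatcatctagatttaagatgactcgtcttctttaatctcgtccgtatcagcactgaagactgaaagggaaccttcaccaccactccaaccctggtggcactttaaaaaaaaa
Ephb3: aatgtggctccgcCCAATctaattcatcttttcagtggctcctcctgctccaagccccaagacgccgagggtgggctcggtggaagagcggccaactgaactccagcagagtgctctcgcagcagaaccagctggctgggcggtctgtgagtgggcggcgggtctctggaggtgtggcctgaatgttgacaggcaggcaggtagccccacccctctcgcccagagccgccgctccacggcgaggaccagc
Ephb1 held the letters at 2 places, starting 186 and 151 bases before the start, Ephb3 at 1 place 237 bases before it, and the Epha5 window did not hold them. Of the 10 genes, 9 had a window in the RefSeq table, and the called receptor Epha4 had none. G and C made up from 47.6% (Epha5) to 80% (Epha8) of these windows, against a median of 51.2% over all windows. The letters CCAAT stood in 6 of these 9, against 34.0% of 33469 windows of the same length, and at 2 or more places in 9.42% of all windows. Those 6 include Epha6 and Epha8, which were not measured. The GC box GGGCGG, on either strand, stood in 4 of the 9 and in 30.5% of all windows, and in Ephb3 it overlapped the CCAAT letters. The TATA box TATAAA, on either strand, stood in 0 of the 9 and in 12.9% of all windows. These motifs were chosen after the sequences had been seen. A called receptor is found with the CCAAT letters and another without them, and a match is a description of the sequence only.

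The ligands of the receptors did not pass the test in the ratios as deposited. Of 8 ephrins, 7 were measured, 0 were called by limma over all genes, and 3 of the 7 means lay below 0. The ephrin-B ligand Efnb1 had a mean of -0.82 ± 0.88 (SD, n = 8 arrays, limma adjusted p = 0.176), and was negative on 6 of 8 arrays with values from -2.39 to 0.32. Its mean was -0.19 ± 0.60 over set 1 and -1.45 ± 0.64 over set 2 (SD, n = 4 arrays each), and 0.63 with the signs of set 2 turned (limma adjusted p = 0.169). Efna1 lay at -0.33 ± 0.31 (SD, n = 8 arrays, limma adjusted p = 0.167), as the mean of a probe at -0.70 and a probe at -0.0063. Efna4 had a mean of 0.70 ± 1.47 (SD, n = 8 arrays, limma adjusted p = 0.602), with a value of 4.21 on array 40. Its mean was 0.079 ± 0.42 over set 1 and 1.32 ± 1.96 over set 2 (SD, n = 4 arrays each), and -0.62 with the signs of set 2 turned (limma adjusted p = 0.34). Efnb2 stood at 0.15 ± 0.26, Efnb3 at 0.017 ± 0.36, Efna2 at 0.016 ± 0.26 and Efna5 at -0.054 ± 0.33 (SD, n = 8 arrays each). Efnb3, Efna2 and Efna5 had opposite signs in the 2 sets of arrays, with set 1 and set 2 means of -0.29 and 0.33, 0.24 and -0.21, and 0.21 and -0.32.

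The fit with turned signs, run for the ephrins and for the gene lists after the data had been seen, gave other calls. In it 3 of the 7 ephrins were called, among the 28.1% of all genes that this fit called, and 3 of the 7 means lay below 0. The called ephrins were Efnb3 at -0.31 ± 0.13, Efna2 at 0.23 ± 0.10 and Efna5 at 0.27 ± 0.18 (SD, n = 8 arrays each, limma adjusted p = 0.003, 0.00799 and 0.0139), and each lay on 1 side of 0 on 8 of 8 turned arrays. Efna1 then stood at -0.12 and Efnb2 at 0.15 (limma adjusted p = 0.562 and 0.223).

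**Figure D4:**
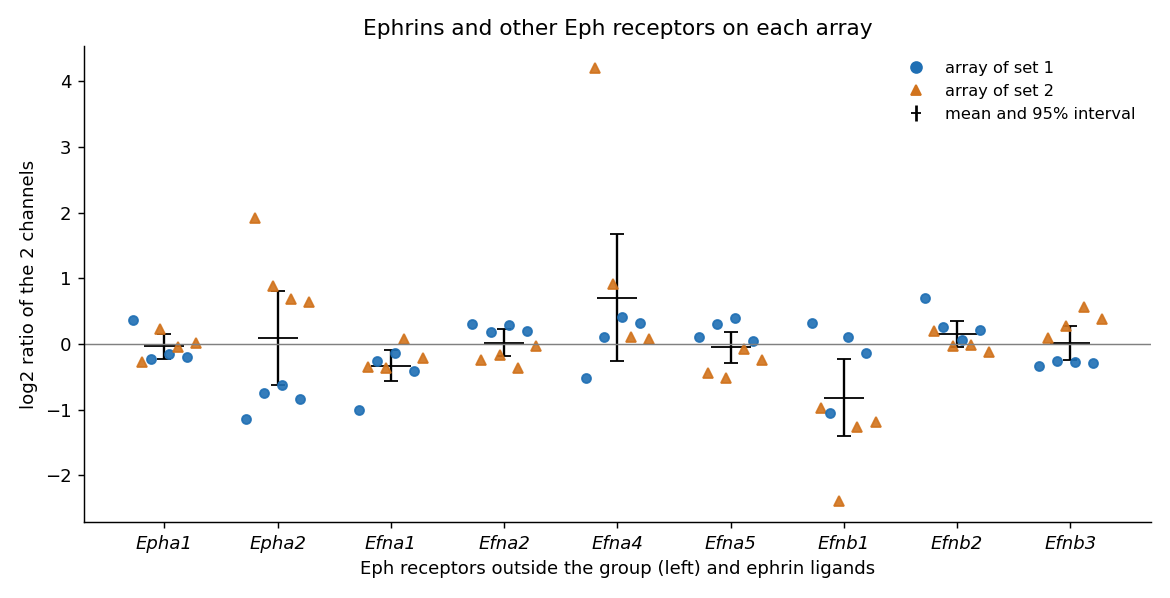
Log2 ratios (vertical axis) of the Eph receptors Epha1 and Epha2 and of 7 ephrins on each array, in array order from left to right, with circles for set 1, triangles for set 2 and bars for the mean and its 95% interval. Epha2 is negative on 4 of 4 arrays of set 1 and positive on 4 of 4 of set 2, and Efna4 stands at 4.21 on array 40.

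Of the 4 Eph receptors outside the group, 2 were measured and neither was called in the ratios as deposited. Epha1 lay at -0.036 ± 0.23 and Epha2, known from epithelial cells, at 0.096 ± 1.08 (SD, n = 8 arrays each, limma adjusted p = 0.951 and 0.966). The wide spread of Epha2 went with the set of the array, at -0.84 ± 0.23 in set 1 and 1.03 ± 0.60 in set 2 (SD, n = 4 arrays each). After the same turn of signs, Epha2 stood at -0.93 ± 0.43 (SD, n = 8 arrays, limma adjusted p = 0.0013), called and negative on 8 of 8 arrays, and Epha1 at -0.017 (limma adjusted p = 0.892).

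Genes that carry or process the Eph signal inside the cell showed 0 calls by limma among 44 measured of 50 listed, with 25 of 44 means below 0 and a median of -0.0097. The largest mean in size was that of Ptprf, a receptor tyrosine phosphatase, at -0.41 ± 0.37 (SD, n = 8 arrays, limma adjusted p = 0.129). The kinase gene Rock1 followed at -0.35 ± 1.16 (SD, n = 8 arrays, limma adjusted p = 0.807). Of 24 listed genes of retinal patterning and map formation, 22 were measured and 13 of 22 means lay below 0. Of the 22, 1 was called (4.55%), against 2.19% of all genes. The called gene was L1cam, an adhesion molecule of growing axons that also takes part in map formation, at -0.61 ± 0.25 (SD, n = 8 arrays, limma adjusted p = 0.0105), and each array gave it a negative ratio. Turning the signs of set 2 put Ptprf at 0.18, Rock1 at 0.019 and L1cam at -0.15 (limma adjusted p = 0.457, 0.975 and 0.629). In that fit 12 of the 44 signalling genes (27.3%) were called, 5 negative and 7 positive, against 28.1% of all genes. Of their means, 13 of 44 lay below 0, with a median of 0.095. Of the 22 patterning genes, 5 (22.7%) were then called, with 13 of 22 means below 0 and a median of -0.11.

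The lists of cell type markers were set beside the receptors, first in the ratios as deposited, where 2.19% of all genes were called. Those of ganglion cells lay mostly on the same side as the called receptors, with 15 of 20 measured means below 0, a median of -0.13, a list mean from -0.34 to -0.039 on single arrays, and 2 called members (Thy1 at -0.30 and Slc17a6 at -0.64). Rod markers had 2 of 14 means below 0 and list means from -0.019 to 0.78 on single arrays, and Rp1 at 0.83 was called. Cone markers had 1 of 9 means below 0 and list means from 0.11 to 0.33, and Gnat2 at 0.54 was called. Bipolar cell markers had 3 of 11 means below 0 and list means from -0.088 to 0.24, with Otx2 at 0.49 and Trpm1 at 0.42 called. Müller glia and astrocyte markers had 8 of 15 means below 0 and list means from -0.21 to 0.15, and Rlbp1 at 0.50 was called. By limma, 0 genes were called among the markers of amacrine cells (3 of 14 means below 0, list means from 0.0071 to 0.22), of microglia and macrophages (1 of 14, -0.33 to 0.84), of horizontal cells (4 of 4 means below 0) and of vessels (6 of 10). The list mean of the 8 Eph receptors was negative on 8 of 8 arrays, from -0.53 to -0.070.

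The sides of the marker lists also depended on the sign. The fit with turned signs called 28.1% of all genes, and from 0% to 50% of the measured genes of single marker lists. With the signs of set 2 turned, 9 of 20 ganglion cell means lay below 0, with a median of 0.054 and 7 genes called, 3 negative and 4 positive. Rod markers had 4 of 14 means below 0, a median of 0.30 and 5 called, all positive, and cone markers had 4 of 9, a median of 0.0080 and 2 called, both negative. Bipolar cell markers had 8 of 11 means below 0, a median of -0.034 and 3 called, all negative. Amacrine cell markers had 6 of 14, a median of 0.10 and 5 called, and Müller glia and astrocyte markers had 5 of 15, a median of 0.11 and 3 called. Microglia and macrophage markers had 7 of 14 with 0 called, horizontal cell markers 1 of 4 with 0 called, and vascular markers 5 of 10 with 5 called, all by limma. Of the 7 markers called in the ratios as deposited, 0 were called by limma with the signs turned. The part of cell composition in the ratios of the receptors was not tested.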

How the data were processed

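The deposited values are a log2 ratio of the 2 channels for 41048 probes on each of 8 Agilent 2-colour arrays; the normalization is not given in the sources used here. Probe intensities were not analysed here. The logarithm's base was inferred: of 88 distances between the commonest values of an array, 74 lay within 0.0011 of a log2 of a ratio of small whole numbers, against 33 for log10 and 14 for the natural log. Medians of the arrays ran from -0.083 to 0.033. The table held 73 values above 15 in size and 574 of exactly 0, which were set to missing, and 30 already missing.

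Probes were named by a platform probe table, with symbols updated through RefSeq (1 changed). Of the probes, 23374 had 1 symbol, 48 several and 17626 none. A gene was the mean of its probes, with a value on at least 6 arrays. An intercept was fitted over the 8 arrays in limma 3.58.1 (R 4.3.3) and p-values were adjusted over all 14801 genes by Benjamini-Hochberg. Differences between members used an exact 2-sided sign-flip permutation test (scipy 1.17.1). On simulated data for this comparison with 14801 genes, limma recovered 56% of 100 genes shifted by 0.5 on the log2 scale and 93% of 100 shifted by 1, with 8 false calls. The simulated arrays were independent, with no shared replicates and no opposing sets. These rates may therefore not hold for the deposited arrays.

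All 8 measured members, all measured ephrins and other Eph receptors, called genes of the 2 pathway lists (the 2 largest where none was called) and the 3 most alike genes of each called member were named. Members, lists and the sets of arrays were chosen with earlier results of these data known. Alternatives covered missing values, centring, scaling, the probe summary, the arrays needed, a robust variance, the sets of arrays, neighbouring arrays and leaving out each array. The number of arrays limits the precision.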

Additional observations from a re-analysis of the deposited data

Results flagged for a closer look

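Of 17 genes examined (8 Eph receptors of the group, 2 others and 7 ephrins), 4 had 1 array far from the rest by Dixon's test at the 95% level, which chance does in about 1 in 20 groups. Epha7 stood at -1.66 on array 39, where the other 7 arrays ran from -0.28 to 0.27. Efna1 stood at -1.0 on array 39, with the other arrays from -0.41 to 0.082. Efnb2 stood at 0.70 on array 39, with the other arrays from -0.12 to 0.26. Efna4 stood at 4.21 on array 40, with the other arrays from -0.52 to 0.91 and a mean of 0.20 without it. All 4 flags fall on arrays 39 and 40, which also have the widest spread over all probes (SD of 0.56 and 0.55 on the log2 scale, against 0.36 to 0.52 on the other 6). None of the called receptors was among them.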

How the results depend on the processing

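Ephb1 and Epha4 kept their call and side without any single array (means from -0.71 to -0.60 and from -0.48 to -0.42), while 2 to 3 members were called. Leaving out 1 array keeps its neighbour in title number, so a replicate shared by neighbours would stay in the fit. With the median of probes, Epha4 was called near the threshold (limma adjusted p = 0.0486). Of all genes, 324 were called, between 134 and 330 without single arrays, 928 with the set as covariate, 4161 with the signs of set 2 turned, 718 as single probes and 0 from averages of neighbouring arrays. The averages called 0 members and the turned signs 1. In the averages, Ephb1 stood at -0.67, Epha5 at -0.58, Epha4 at -0.44 and Epha3 at -0.00064, on fewer samples. With the signs turned, Ephb1 stood at 0.062, Epha4 at 0.079, Epha5 at -0.052 and Ephb3 at -0.41. With the neighbouring arrays as block and a term for the set, Ephb1, Epha5 and Epha4 kept their means by design and their calls. Without arrays 39 and 40 together, added after seeing the data, Epha5 at -0.59 was not called, and Epha7 at 0.0073 and Ephb2 at 0.029 changed side. Single probes without a call were 34447 of Epha5 at -0.49 and 797, 881 and 26929 of Epha4 at -0.18, -0.34 and -0.27; Ephb2 probes 16680 and 36758 lay at 0.037 and 0.0034. Without single arrays, means ran from -0.65 to -0.51 for Epha5, from -0.063 to 0.012 for Ephb2 and from -0.0016 to 0.20 for Epha3. Differences between neighbours ran from -0.17 to 0.033 (Ephb1 minus Epha5), -0.24 to 0.092 (Ephb6 minus Epha7), -0.17 to 0.047 (Ephb2 minus Epha3) and -0.23 to 0.12 (Epha3 minus Ephb3), the last at 2.09 with values as deposited. The cause of these changes was not tested. Beyond the ratio within each array, no pairing of samples was possible, because the labels give 1 group and no number shared between samples. Probe intensities were not analysed here, so dim probes could not be set apart.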

Other observations

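Zic2, a transcription factor that in the mouse drives Ephb1 in ganglion cells with uncrossed axons, was outside the naming rule and was picked after its value was seen. It lay at 0.83 ± 1.36 (SD, n = 8 arrays, limma adjusted p = 0.438), on the side opposite to Ephb1, and its values of 2.95 on array 40 and 3.03 on array 42 stood apart from the other 6, which ran up to 0.61. With the signs of set 2 turned it stood at -0.89 (limma adjusted p = 0.127). Aldh1a2, a retinoic acid synthesis enzyme picked in the same way, had a mean of -1.18 ± 1.12 (SD, n = 8 arrays, limma adjusted p = 0.116), the lowest of all genes as deposited, with 7 of 8 arrays negative. Turned, it stood at 0.32 (limma adjusted p = 0.67).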
